A study of Mus musculus with 8 samples.

Results

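The mitochondrial ribosomal proteins were taken here as every gene of the deposited table whose symbol is Mrpl or Mrps followed by a number and at most 1 letter, pseudogene rows left out. The rule found 78 genes among the 54427 listed, 49 with an Mrpl symbol and 29 with an Mrps symbol, and it used no expression value. The RNA came from primary pancreatic acinar cells, the enzyme-secreting cells of the exocrine pancreas, of wild-type mice. The samples fell into 4 libraries titled AP and 4 titled AP_OCA. Per the labels all cells were kept in HEPES-buffered medium with serum, and injury was induced with 1 µM cholecystokinin octapeptide (CCK), a hormone fragment that drives enzyme secretion, for 6 h. OCA is the abbreviation used by the labels, which state a dose of 2.5 µM. The same treatment text stands on all 8 samples, so the absence of OCA in the AP group rests on the sample and series titles. There was no group without CCK. The labels do not say whether the replicates were separate animals or cultures, so p-values measure only the spread between these samples, which may be technical.

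Mitochondria carry their own ribosome, which makes the respiratory chain proteins encoded by mitochondrial DNA. Its RNA is transcribed inside the organelle, whereas all of its proteins are encoded in the nucleus, made on cytosolic ribosomes and imported. Mrpl symbols name proteins of the large subunit, which joins amino acids, and Mrps symbols name proteins of the small subunit, which reads the messenger RNA. Some of them descend from bacterial ribosomal proteins and others are found only in mitochondria. Acinar cells spend much ATP on the synthesis and secretion of digestive enzymes.

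One library stood apart before any comparison was made. In AP_OCA replicate 2, 21010 genes were above 0, against 15394 to 16640 in the other 7 libraries. Its summed level of macrophage markers was 10948 CPM against 137 to 235 in the other 7, and its summed lymphocyte markers stood at 3606 CPM against 1.92 to 34.1. CPM here is the deposited value returned from the log2 scale and scaled to a sum of 1000000 per library. Because the authors' values share 1 distribution across libraries, CPM is a position in that distribution and not a share of reads. Total reads per library are unknown. The level read as a count of 3, the limit that a count of 0 allows, lay at 0.206 to 0.313 CPM in the 7 libraries and covers counting error only. Acinar markers, digestive enzyme genes such as Ctrb1 and Pnlip among them, summed to 468580 to 481040 CPM in AP. In AP_OCA replicates 1, 3 and 4 they summed to 460280, 470520 and 433830 CPM, and in replicate 2 to 423890 CPM. Results are therefore given for 7 libraries, AP replicates 1 to 4 against AP_OCA replicates 1, 3 and 4, then for all 8, and AP_OCA replicate 2 is described by itself.

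The promoters of 4 members are shown because of what the genes did. Mrpl30 and Mrpl35 were the members past the test's threshold, and Mrps2 and Mrps18b were among the few with lower means under OCA. Each window runs from 250 bases before to 50 bases after the start of the gene in RefSeq's GRCm38.p6 table, 5′ to 3′ on the gene's own strand. The Mrpl30 window is chr1:37890227-37890526 on the plus strand, that of Mrpl35 is chr6:71823735-71824034 on the minus strand, that of Mrps2 is chr2:28467816-28468115 on the plus strand and that of Mrps18b is chr17:35916391-35916690 on the minus strand. Capitals mark matches, on either strand, to GCGCA and GCGC with 1 base between them for NRF1, or to the letters AANATGGCG for YY1 or CCGGAAG for the core bound by ETS factors such as GABPA. These are factors known to regulate nuclear genes for mitochondrial proteins.
Mrpl30: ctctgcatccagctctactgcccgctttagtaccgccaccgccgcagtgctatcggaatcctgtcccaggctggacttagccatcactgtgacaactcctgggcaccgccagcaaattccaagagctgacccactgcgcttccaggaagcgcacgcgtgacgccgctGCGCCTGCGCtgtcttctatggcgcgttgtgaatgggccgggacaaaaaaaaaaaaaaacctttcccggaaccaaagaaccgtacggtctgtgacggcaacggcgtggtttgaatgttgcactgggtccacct
Mrpl35: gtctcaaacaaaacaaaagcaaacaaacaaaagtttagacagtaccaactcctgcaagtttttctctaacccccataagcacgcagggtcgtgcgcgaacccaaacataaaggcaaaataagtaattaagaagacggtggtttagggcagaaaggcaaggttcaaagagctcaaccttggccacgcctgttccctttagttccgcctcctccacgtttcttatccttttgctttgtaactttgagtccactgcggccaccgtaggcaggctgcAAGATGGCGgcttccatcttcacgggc
Mrps2: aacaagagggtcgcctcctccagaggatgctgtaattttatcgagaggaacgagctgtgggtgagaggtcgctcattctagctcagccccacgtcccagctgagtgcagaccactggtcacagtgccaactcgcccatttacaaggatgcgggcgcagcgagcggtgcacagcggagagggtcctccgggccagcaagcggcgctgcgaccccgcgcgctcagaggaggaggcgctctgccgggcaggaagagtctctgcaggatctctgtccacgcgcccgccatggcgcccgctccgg
Mrps18b: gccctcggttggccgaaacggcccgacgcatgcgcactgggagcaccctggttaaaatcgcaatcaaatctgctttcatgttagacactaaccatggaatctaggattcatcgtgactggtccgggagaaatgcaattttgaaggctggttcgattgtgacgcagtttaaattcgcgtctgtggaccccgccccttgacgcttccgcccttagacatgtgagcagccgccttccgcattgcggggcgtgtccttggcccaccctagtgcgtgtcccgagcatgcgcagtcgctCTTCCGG
The window of Mrpl30 held an NRF1 match, that of Mrpl35 a YY1 match after the start, that of Mrps18b an ETS match after the start, and that of Mrps2 none of the 3. Of the 78 members, 69 had a window in the table. ETS letters stood in 26 of the 69 (37.7%), against 20.6% of the tested genes with a window and 9.93% of all genes with one. NRF1 letters stood in 13 members (18.8%), against 11.8% of tested genes and 5.19% of all genes. YY1 letters stood in 11 (15.9%), against 6.44% and 2.76%. At least 1 of the 3 stood in 42 members (60.9%), against 33.8% of tested genes and 15.9% of all genes. No ETS match overlapped a YY1 match. The E-box CACGTG, searched as a further motif, stood in 5 members (7.25%), against 12.3% of tested genes and 8.09% of all. Some other members held more than 1 of these motifs, among them Mrpl17 with ETS and NRF1 letters and Mrps18a with ETS and YY1 letters. A match describes the letters in the window and is not a measured binding site.

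Nearly all members were transcribed at a modest level. Of the 78, 77 were above 0 in at least 1 library, and Mrpl53, a large subunit protein, was listed at 0 in all 8. Mrpl53 overlaps a protein-coding gene on the same strand and another gene on the opposite strand. How shared reads were assigned is not given, so its 0 cannot be read as absence of its RNA. Over the 7 libraries the mean level of the other 77 ranged from 0.936 to 37.7 CPM with a median of 9.47 CPM. Per kilobase of transcript, the scale on which genes can be compared, their median level was 5.27 CPM against 2.69 for all tested genes. The large subunit genes had a median level of 6.34 CPM per kilobase and the small subunit genes 4.45. Mrpl52, a large subunit protein with no bacterial counterpart, was highest at 81.5 CPM per kilobase. It was followed by Mrpl54, also without a bacterial counterpart, at 38.1 and by Mrps21, a small subunit protein, at 29.4. Mrps25 was lowest of the 77 at 0.444. Lengths are those of the longest annotated protein-coding transcript. The rank of Mrpl52 on this scale rests in part on its short transcript of 463 bases, and that of Mrps25 on its long one of 6073 bases. In CPM without length, Mrps36 was lowest.

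The members lay mostly higher under OCA, and few passed the test one by one. Summed over all 78 members, the level was 637, 703, 812 and 623 CPM in AP replicates 1 to 4, and 855, 936 and 1245 CPM in AP_OCA replicates 1, 3 and 4. The groups did not overlap, with means of 694 ± 86.1 (SD, n = 4) and 1012 ± 205 CPM (SD, n = 3), and AP_OCA replicate 2, at 1050 CPM, lay within the range of the other OCA libraries. By symbol, the large subunit sum was 461 ± 58.4 CPM in AP and 698 ± 161 under OCA. The small subunit sum was 233 ± 28.0 CPM in AP and 314 ± 44.8 under OCA. In bulk RNA a change in the share of cells of a type and a change of RNA per cell cannot be told apart.

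**Figure D1:**
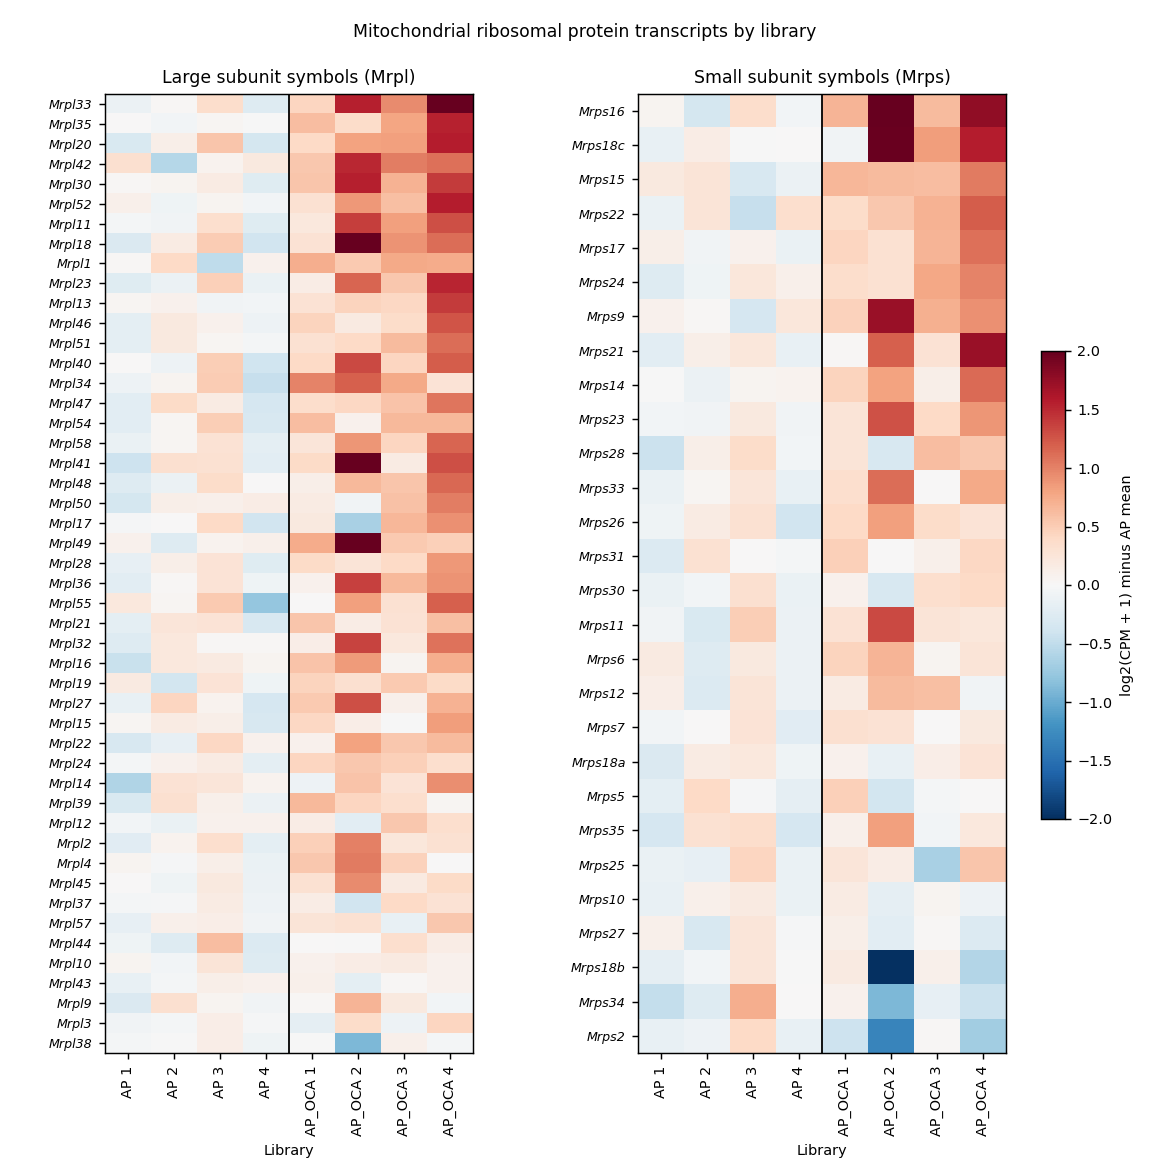
Level of the 76 members tested in the 7 libraries, by library (columns), as log2(CPM + 1) minus the member's mean over the AP libraries, ordered by fold change within each subunit, with colours ending at 2 and -2. AP_OCA replicate 4 holds the highest value for 46 of the 77 members above 0 when AP_OCA replicate 2 is left aside, and AP_OCA replicate 2 shows both high and low values.

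Across genes, AP_OCA was compared with AP on log2(CPM + 1) with limma, leaving out genes that averaged under 1 CPM. That filter kept 76 of the 78 members in the 7 libraries. Fold changes are AP_OCA over AP on that log2 scale, which understates the change of low genes. The log2 fold change was positive for 72 of the 76 (94.7%), against 50.0% of all 10894 genes tested. Its median was 0.47 over the members and -0.00 over all genes, and the members ranged from -0.36 to 1.14. The AP_OCA values lay wholly above the AP values for 25 members (32.9%), against a background of 11.1%, and wholly below for 0, against 12.1%. At an unadjusted p under 0.05, 34 members (44.7%) were higher, against 11.8% of all genes, and 0 were lower, against 13.9%. With limma and Benjamini-Hochberg adjustment over all genes at a threshold of 0.05, 2 members rose (2.63%), against a background of 0.854%, and 0 fell, against 1.59%.

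**Figure D2:**
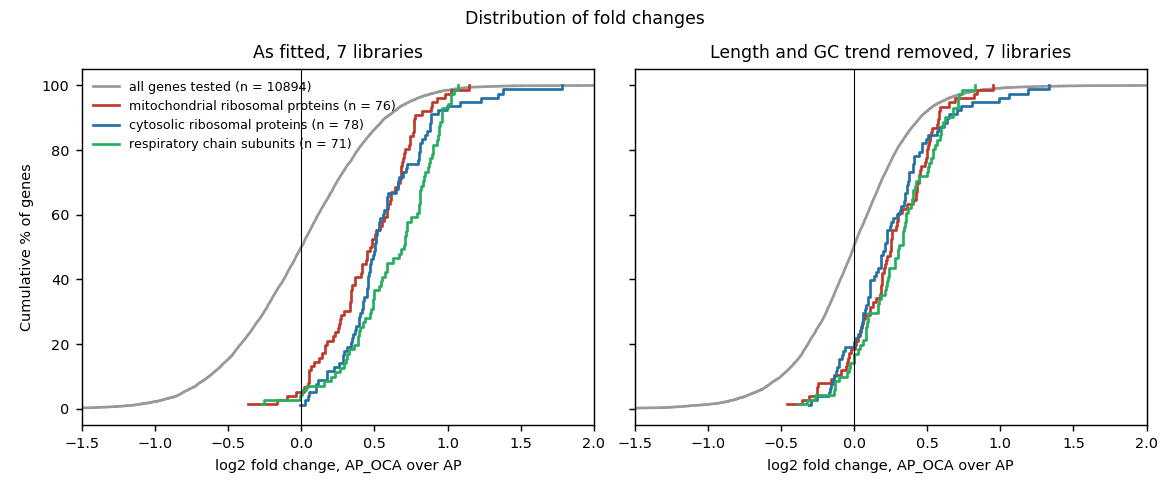
Cumulative percentage of genes by log2 fold change of AP_OCA over AP in the 7 libraries, for all tested genes, the mitochondrial ribosomal proteins, the cytosolic ribosomal proteins and the nuclear-encoded respiratory chain subunits, as fitted (left) and with the trend over transcript length and GC content removed (right). The median of the mitochondrial ribosomal proteins moves from 0.47 to 0.25 between the panels, and that of all genes stays near 0.

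The first member that rose was Mrpl30, a large subunit protein with a bacterial counterpart, encoded at chr1:37890477-37898535 on the plus strand (mm10). Its level was 20.5, 21.0, 22.7 and 16.9 CPM in AP replicates 1 to 4, and 30.1, 33.4 and 54.9 CPM in AP_OCA replicates 1, 3 and 4. Every OCA library lay above every AP library, and the OCA libraries were spread more widely. Its log2 fold change was 0.88 ± 0.22 (SE), with an adjusted p of 0.0490 from limma. In AP_OCA replicate 2 it stood at 61.6 CPM, the highest of the 8, and with all 8 libraries its log2 fold change was 1.05 with a limma adjusted p of 0.260.

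Mrpl35, the other member that rose, is also a large subunit protein with a bacterial counterpart, encoded at chr6:71812997-71826969 on the minus strand. Its level in AP was tight, at 6.12, 5.82, 6.27 and 6.04 CPM, and under OCA it was 9.84, 11.3 and 19.6 CPM. Every OCA value lay above every AP value, but the spread was 0.189 CPM (SD) in AP and 5.27 CPM (SD) under OCA. The log2 fold change was 0.99 ± 0.24 (SE), with an adjusted p of 0.0486 from limma, and AP_OCA replicate 2, at 8.08 CPM, also lay above all 4 AP libraries. With all 8 libraries the log2 fold change was 0.83 with a limma adjusted p of 0.262. Both calls sit close to the threshold. Of the 7 fits that each left out 1 library, only the one without AP_OCA replicate 1 kept either call. Over these fits the log2 fold change of Mrpl30 ranged from 0.63 to 1.05 and that of Mrpl35 from 0.71 to 1.17.

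**Figure D3:**
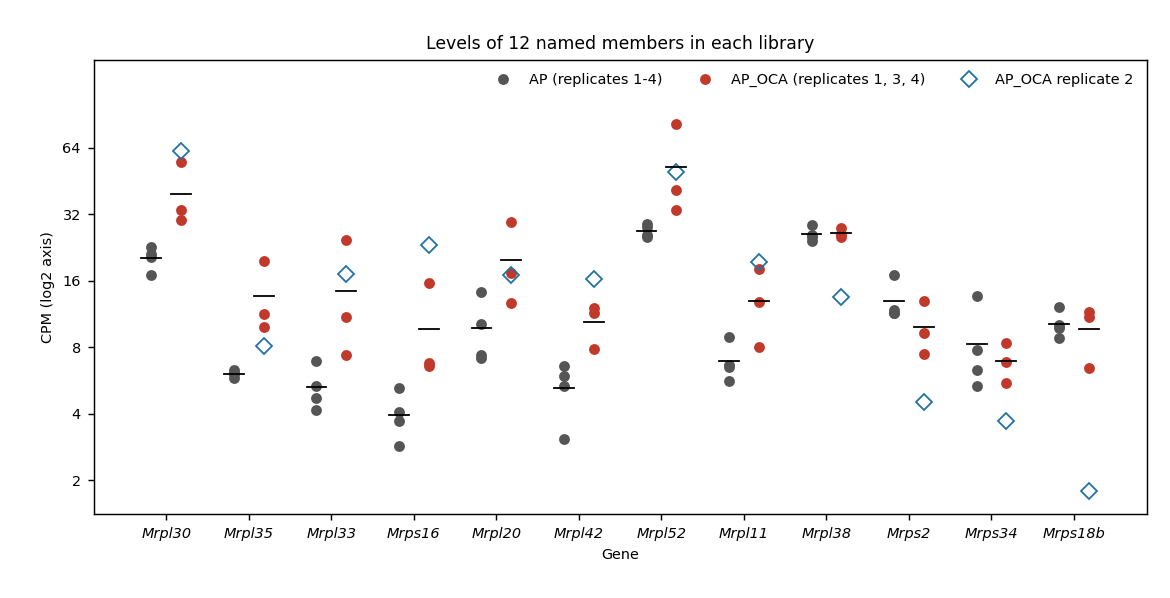
CPM in each library for 12 of the named members (log2 axis), AP beside AP_OCA, with AP_OCA replicate 2 marked by an open diamond and horizontal lines at the means of the AP libraries and of AP_OCA replicates 1, 3 and 4. Mrpl30 and Mrpl35 separate the groups, whereas the values of Mrpl38 and Mrps34 overlap.

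Among the other large subunit genes averaging 5 CPM or more, the highest fold changes belonged to genes whose adjusted p lay above the threshold. Mrpl33, a small protein with a bacterial counterpart, stood at 4.69, 5.31, 6.90 and 4.15 CPM in AP and at 7.34, 11.0 and 24.6 under OCA. Its log2 fold change of 1.14 ± 0.32 (SE) was the highest of all members, with a limma adjusted p of 0.0646, and without AP_OCA replicate 4 it was 0.69. Mrpl33 overlaps a protein-coding gene on the opposite strand, and since the strand setting of the counting is not given, its reads and those of that gene cannot be told apart. Mrpl20, whose bacterial counterpart acts early in large subunit assembly, stood at 7.35, 10.2, 14.2 and 7.11 CPM in AP and at 12.7, 17.3 and 29.6 under OCA. AP replicate 3 reached into the OCA range for Mrpl20, and the log2 fold change was 0.93 ± 0.29 (SE) with a limma adjusted p of 0.0805.

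Mrpl42 and Mrpl52 have no bacterial counterpart. Mrpl42 was at 6.55, 3.07, 5.33 and 5.89 CPM in AP and 7.82, 11.4 and 12.0 under OCA. Mrpl52 was at 28.8, 25.3, 27.9 and 25.7 CPM in AP and 33.4, 41.3 and 81.5 under OCA. For both, all OCA values lay above all AP values, with log2 fold changes of 0.89 ± 0.26 and 0.82 ± 0.25 (SE) and limma adjusted p of 0.0660 and 0.0761. The value of Mrpl52 leans on 1 library, and without AP_OCA replicate 4 its log2 fold change was 0.45. Mrpl11, part of the stalk base where translation factors dock, was at 6.64, 6.47, 8.88 and 5.60 CPM in AP and 8.02, 12.8 and 18.0 under OCA. AP replicate 3 lay above AP_OCA replicate 1 for Mrpl11, and its log2 fold change was 0.77 ± 0.26 (SE) with a limma adjusted p of 0.0964.

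Mrpl17, with a mean among the highest in CPM, was at 28.9, 29.7, 38.9 and 22.2 CPM in AP and 33.7, 47.1 and 55.9 under OCA, so the groups overlapped through AP replicate 3, and its log2 fold change was 0.59 ± 0.22 (SE) with a limma adjusted p of 0.122. Not every large subunit gene shared the shift. Mrpl38, found only in mitochondria, was nearly level, at 25.3, 25.8, 28.5 and 24.2 CPM in AP and 25.9, 27.8 and 25.2 under OCA. Its log2 fold change was 0.02 ± 0.17 (SE), the lowest of the 48 large subunit genes tested. Mrpl37, also found only in mitochondria, was at 23.0 ± 1.86 CPM (SD, n = 4) in AP and 28.0 ± 2.49 (SD, n = 3) under OCA, with a limma adjusted p of 0.325. Mrpl12, which binds the mitochondrial RNA polymerase as well as the ribosome, was at 13.9, 13.3, 15.6 and 15.6 CPM in AP and 16.2, 21.5 and 18.6 under OCA. Its groups did not overlap, yet the log2 fold change was 0.34 ± 0.19 (SE) with a limma adjusted p of 0.267.

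In the small subunit, Mrps16, which has a bacterial counterpart, had the highest fold change. It was at 4.05, 2.84, 5.25 and 3.70 CPM in AP and at 6.80, 6.55 and 15.7 under OCA, with no overlap. The log2 fold change was 1.02 ± 0.29 (SE) with a limma adjusted p of 0.0654, and without AP_OCA replicate 4 it was 0.65. Mrps24, the most abundant of the small subunit genes in CPM, was at 15.7, 17.9, 22.5 and 20.5 in AP and 24.6, 33.1 and 38.6 under OCA. Its log2 fold change was 0.71 ± 0.20 (SE) with a limma adjusted p of 0.0660. Mrps24 overlaps a protein-coding gene on the same strand, so its reads may not be separable from those of that gene. Mrps12, which lies at the decoding centre, was at 4.94 ± 0.978 CPM (SD, n = 4) in AP and 6.05 ± 1.73 (SD, n = 3) under OCA, with overlapping groups and a limma adjusted p of 0.569.

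The members with negative fold changes were 4 small subunit genes, Mrps2, Mrps34, Mrps18b and Mrps27, and none passed the test. Mrps2, which has a bacterial counterpart, was at 11.4, 11.8, 17.0 and 11.4 CPM in AP and 9.29, 12.9 and 7.48 under OCA. The groups overlapped, and the log2 fold change was -0.36 ± 0.23 (SE) with a limma adjusted p of 0.327. It was -0.55 without AP_OCA replicate 3, -0.23 without AP replicate 3 and -0.20 without AP_OCA replicate 4. Mrps34, found only in mitochondria, was at 5.32, 6.31, 13.6 and 7.80 CPM in AP and 8.34, 6.84 and 5.50 under OCA. Its log2 fold change of -0.17 ± 0.28 (SE) turned to 0.08 without AP replicate 3, and it overlaps protein-coding genes on both strands. Mrps27 had a log2 fold change of -0.04.

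The symbols Mrps18a, Mrps18b and Mrps18c name related copies of 1 bacterial protein. Mrps18a, whose protein sits in the large subunit despite its symbol, was at 12.3, 17.1, 17.7 and 14.2 CPM in AP and 16.1, 16.7 and 18.6 under OCA. Mrps18b was at 8.79, 9.73, 12.1 and 10.1 CPM in AP and 11.6, 11.0 and 6.42 under OCA. Mrps18c was at 2.00, 2.70, 2.34 and 2.37 CPM in AP and 2.17, 4.98 and 8.98 under OCA. The AP and OCA values overlapped for all 3 copies, with log2 fold changes of 0.16, -0.10 and 0.78 and limma adjusted p of 0.621, 0.822 and 0.155. For Mrps18b the sign turned without AP_OCA replicate 4, at 0.14, and for Mrps18c the value without that library was 0.38. Mrps30, another protein of the large subunit despite its symbol, was at 12.6 ± 2.12 CPM (SD, n = 4) in AP and 15.3 ± 1.81 (SD, n = 3) under OCA, with a limma adjusted p of 0.407. Mrps36, whose product is now counted as a part of the 2-oxoglutarate dehydrogenase complex, averaged under 1 CPM and was not tested in the 7 libraries. It was at 1.12, 1.45, 1.60 and 0.305 CPM in AP and 1.14, 0.926 and 0.0122 under OCA, the last below the level read as a count of 3.

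By subunit as the symbols name it, all 48 Mrpl genes tested had a positive log2 fold change, with a median of 0.55, and 25 of them were higher at an unadjusted p under 0.05 (52.1%, against 11.8% of all genes). Of the 28 Mrps genes tested, 24 were positive, with a median of 0.30, and 9 were higher at that p (32.1%). The OCA and AP values did not overlap for 17 Mrpl and 8 Mrps genes, all higher under OCA (35.4% and 28.6%, against 11.1% of all genes). With Mrps18a and Mrps30 counted in the large subunit and Mrps36 left out, a grouping added after the values were seen, the medians were 0.52 over 50 and 0.34 over 26 genes. Within the Mrpl genes, the median was 0.49 for the 30 genes with a bacterial counterpart and 0.60 for the 18 without. Within the Mrps genes, it was 0.52 for the 16 with a counterpart and 0.22 for the 12 without, when Mrps18a and Mrps18b were counted by their mitochondrial names as without. When all 3 Mrps18 copies were counted as having one, the medians were 0.36 over 18 and 0.30 over 10 genes. These medians describe the lists, and the difference between subunits was not tested.

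With AP_OCA replicate 2 included, 77 members were tested and their median log2 fold change was 0.51, with 71 positive (92.2%, against 49.1% of all genes). No member passed limma's test after adjustment, 0 of 77 against 0.0% of all 11311 genes. At an unadjusted p under 0.05, 28 members (36.4%) were higher, against 7.31%, and 0 were lower, against 8.87%. The groups of 4 did not overlap for 19 members, all higher (24.7%, against 6.75%), and the OCA values lay wholly below for 0, against 8.57%. When limma weighted the libraries by their quality, 25 members were past the adjusted threshold in the 7 libraries, against 7.11% of all genes, and 17 in the 8, against 4.25%, all higher. The weight was 0.283 for AP_OCA replicate 4 in the 7 and 0.063 for AP_OCA replicate 2 in the 8. The medians were 0.56 for the large and 0.33 for the small subunit genes.

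AP_OCA replicate 2 did not place the members at 1 end of the range. It lay above all 7 other libraries for 29 of the 77 members (37.7%, against 32.5% of all genes tested) and below all 7 for 11 (14.3%, against 36.9%). On log2(CPM + 1) it lay more than 2-fold above the highest of the 7 for Mrpl49, Mrpl41 and Mrpl18 and more than 2-fold below the lowest for Mrps18b. Mrpl49, found only in mitochondria, was at 9.53 CPM there against 0.854 to 2.70 in the other 7. Mrpl41, also found only in mitochondria, was at 15.5 CPM against 0.917 to 5.28, and Mrpl18, which has a bacterial counterpart, at 14.4 CPM against 1.15 to 5.07. Without that library these genes had log2 fold changes of 0.58, 0.61 and 0.77, none past the threshold, and that of Mrpl41 was 0.27 when AP_OCA replicate 4 was also left out. On the low side, Mrps18b was at 1.79 CPM there against 6.42 to 12.1 in the other 7. Mrps2 was at 4.49 CPM against 7.48 to 17.0, and Mrpl38 at 13.5 against 24.2 to 28.5. Mrpl49 and Mrpl18 overlap protein-coding genes on the opposite strand.

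**Figure D4:**
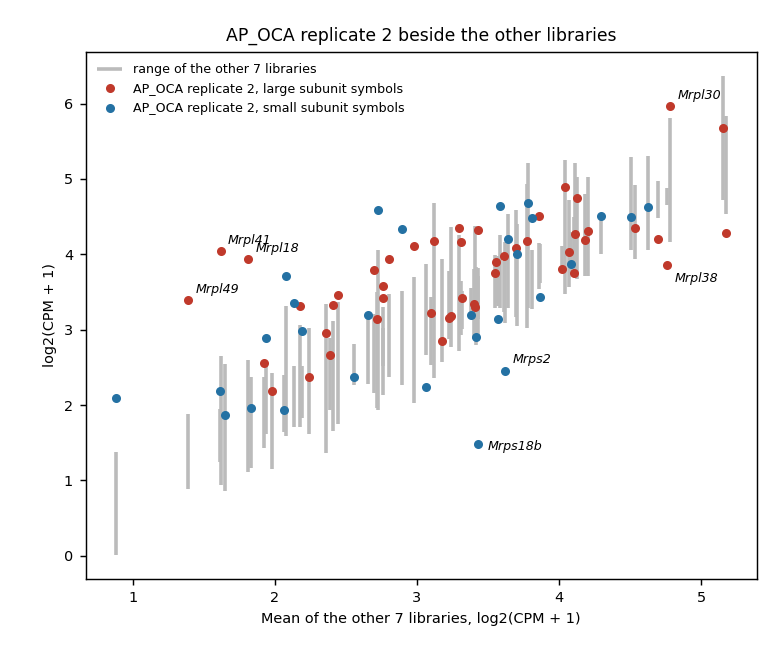
Level of each member in AP_OCA replicate 2 (points) with its range over the other 7 libraries (bars), on a log2(CPM + 1) scale, placed by its mean over those 7. Mrpl49, Mrpl41 and Mrpl18 stand above the range and Mrps18b below it, and 37 of 77 members lie within it.

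Single libraries moved with the shift among the other 7. AP_OCA replicate 4 held the highest value of the 7 for 46 of 77 members (59.7%), against 26.6% of all genes. Among the AP libraries, replicate 3 was highest for 51 members (66.2%), against 39.8% of all genes. Without AP_OCA replicate 4 the median log2 fold change of the members was 0.34 with 72 of 77 positive, against 51.5% of all genes, and 0 past the limma threshold. At an unadjusted p under 0.05, 18 members were then higher, against 7.35% of all genes. Mrpl20 was at 0.61 and Mrpl11 at 0.51 without that library. Without AP replicate 3 it was 0.56 with 74 of 76 positive, against 49.4% of all genes, and 0 past the limma threshold, and 37 members were higher at an unadjusted p under 0.05, against 12.1%. The members' median stayed above that of all genes without either library.

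Markers of other cell types moved with the groups too. The summed endothelial markers, 10 genes with none at 0, were at 127 to 160 CPM in AP and 49.3 to 111 in AP_OCA replicates 1, 3 and 4. The endothelial gene Eng fell, from 25.3 ± 1.29 CPM (SD, n = 4) to 12.8 ± 3.84 (SD, n = 3), with a limma adjusted p of 0.0406, a call kept only without AP_OCA replicate 1 among the fits that left out 1 library. With the trend of fold change over transcript length and GC content removed, Eng was at -0.62 with a limma adjusted p of 0.0831, from -0.97. The 10 stellate cell markers, of which the collagen gene Col1a1 fell, summed to 196 to 257 CPM in AP and 123 to 195 under OCA, and the 8 duct markers to 337 to 411 and 445 to 527. In the 7 libraries the ranges of the endothelial, stellate and duct sums did not overlap between the groups, though the stellate ranges nearly met. AP_OCA replicate 2 went the other way for each, with endothelial and stellate sums of 251 and 655 CPM above all AP libraries. Its duct sum of 44.7 CPM lay below them. Gene by gene, 9 of 10 endothelial and 8 of 10 stellate markers had a negative fold change, with medians of -0.82 and -0.69. Of the 2 most abundant stellate genes, Col3a1 went from 81.8 ± 17.6 CPM (SD, n = 4) to 48.1 ± 13.8 (SD, n = 3). Dcn went the other way, from 33.5 ± 11.4 CPM to 44.1 ± 5.68, and neither passed limma's test. The duct genes were split, with 4 of 7 tested positive and a median of 0.02. The abundant duct gene Krt19 went from 122 ± 26.5 CPM (SD, n = 4) to 183 ± 23.4 (SD, n = 3), with a limma adjusted p of 0.0929, and Muc1 from 133 ± 17.9 to 129 ± 38.6. Of the 14 acinar markers tested, 8 were positive, with a median of 0.01, and their sum was lowest of the 7 in AP_OCA replicate 4. The part of these cell types in the members' shift was not tested.

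Immune markers were low but not absent in the 7 libraries. The 14 lymphocyte markers summed to 2.48 to 34.1 CPM in AP and 1.92 to 3.803 under OCA, with Cd3e, Cd3g and Cd2 at 0. The highest sum, in AP replicate 1, held Ighm at 24.8 CPM. The 8 neutrophil markers summed to 29.4 to 61.5 CPM in AP and 11.9 to 70.2 under OCA, with Mpo and Elane at 0, S100a9 at 2.70 to 35.5 CPM and S100a8 at 4.22 to 27.2. All 5 neutrophil markers tested had a negative fold change, with a median of -0.43, and 1 fell, the receptor gene Csf3r. Their part in the members' shift was not tested.

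Transcript length and GC content moved with the fold change over all genes. Among the shortest quintile of tested genes, up to 1675 bases, the median log2 fold change of all genes was 0.29, and it was -0.11 in the longest quintile. Of the 76 members, 46 were in the shortest quintile, where their own median was 0.47. Members in the next 4 quintiles had medians of 0.34, 0.61, 0.42 and 0.32, the last from 2 genes, against 0.02, -0.10, -0.13 and -0.11 for all genes. By GC content the members' medians ran from 0.59 in the lowest quintile to 0.35 in the highest, against 0.27 and -0.23 for all genes. With the trend over length and GC removed, the members' median was 0.25, and 62 of 76 were positive, against 49.5% of all genes. No member then passed limma's test, with 22 higher and 1 lower at an unadjusted p under 0.05, against 9.58% and 10.4% of all genes. The 12 small subunit genes counted as without a bacterial counterpart, Mrps18a and Mrps18b among them, had a median of -0.00. Without these copies the median was 0.09 over 10 genes. Mrpl30 was then at 0.48 with a limma adjusted p of 0.161, and Mrpl35 at 0.84 with 0.0744. Among the others named, Mrpl33 was at 0.53, Mrpl20 at 0.58, Mrpl42 at 0.29, Mrpl18 at 0.46, Mrpl41 at 0.26 and Mrps18c at 0.11. Mrps12 was at 0.03, Mrps30 at 0.13, Mrps34 at -0.31 and Mrps18b at -0.36, and Mrps18a changed sign to -0.05.

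**Figure D5:**
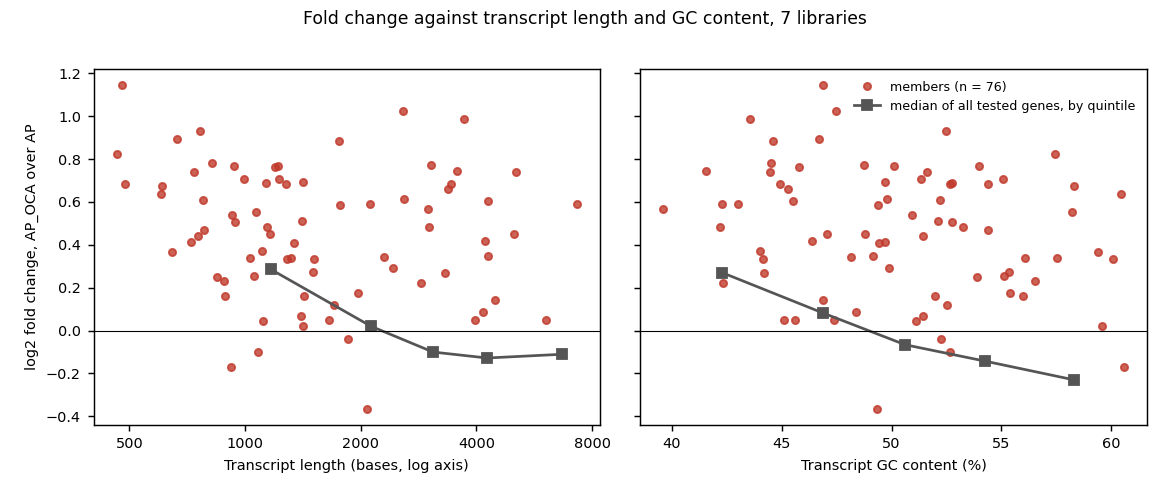
Log2 fold change of each tested member in the 7 libraries against the length (left, log axis, bases) and GC content (right, percent) of its transcript, with squares at the medians of all tested genes by quintile. The members lie above the line of medians in most of the range, and the line itself falls from 0.29 to -0.11 with length.

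Lists of other genes for mitochondrial translation and DNA had medians nearer 0 than the members, though by less once length and GC were accounted for. The 5 ribosomal proteins of mitochondria with other symbols had a median log2 fold change of 0.33, 4 positive and 0 past the limma threshold. Among them Chchd1, a small subunit protein, was at 7.48 ± 1.25 CPM (SD, n = 4) in AP and 14.0 ± 7.73 (SD, n = 3) under OCA, with a limma adjusted p of 0.150. Its log2 fold change of 0.71 ± 0.29 (SE) was 0.32 without AP_OCA replicate 4 and 0.17 after removal of the trend over length and GC. The 23 assembly factors tested had a median of 0.11, the 13 translation factors -0.00, the 19 mitochondrial tRNA synthetases -0.04 and the 12 genes for copying and transcribing mitochondrial DNA 0.01. None of these lists held a gene past the threshold in either direction. At an unadjusted p under 0.05 the assembly factors held 2 higher and 1 lower, the translation factors 0 of either, the synthetases 2 and 1, and the mitochondrial DNA genes 2 and 2. Polg, the polymerase that copies mitochondrial DNA, was at 35.9 ± 5.75 CPM in AP and 19.9 ± 8.10 under OCA, with a log2 fold change of -0.90 ± 0.26 (SE) and a limma adjusted p of 0.0699. It was -0.52 without AP_OCA replicate 4 and -0.57 with the length and GC trend removed. Mrm1, which methylates the large mitochondrial ribosomal RNA, was at 4.51 ± 1.76 and 1.80 ± 0.757 CPM, with a limma adjusted p of 0.0729. Taking out the trend over length and GC brought these lists closer to the members, whose median was then 0.25. The ribosomal proteins with other symbols were at 0.17, beside 0.16 for the members with Mrps symbols. The assembly factors were then at 0.10, the translation factors at 0.07, the synthetases at 0.00 and the mitochondrial DNA genes at -0.04.

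Of 7 regulators of mitochondrial biogenesis tested, 1 fell and 0 rose, and 2 of the 7 had a positive fold change. The one that fell was Pprc1, a coactivator related to PGC-1 that works with NRF1. Its level was 134, 122, 148 and 126 CPM in AP and 78.5, 79.8 and 63.1 under OCA. Every OCA library lay far below every AP library, with a log2 fold change of -0.84 ± 0.17 (SE) and a limma adjusted p of 0.0285. It stayed past the threshold only without AP_OCA replicate 1 or AP_OCA replicate 4 among the 7 fits that left out 1 library, with values from -0.90 to -0.74. With the length and GC trend removed it was at -0.45 with a limma adjusted p of 0.0908, no longer past the threshold. In AP_OCA replicate 2 it was at 15.1 CPM, and the limma adjusted p with all 8 libraries was 0.265.

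The cytosolic ribosomal proteins and the nuclear-encoded respiratory chain subunits lay higher as the members did. Of 78 cytosolic ribosomal proteins tested, 13 rose, 0 fell and 77 had a positive fold change, with a median of 0.51. Rpl17, one of those that rose, went from 62.7 ± 8.49 CPM (SD, n = 4) to 137 ± 34.9 (SD, n = 3), with a limma adjusted p of 0.0267. Of 71 respiratory chain subunits tested, 5 rose, 0 fell and 68 were positive, with a median of 0.70. Ndufa4, a small respiratory chain protein, rose from 11.7 ± 0.773 CPM to 26.4 ± 7.99, with a limma adjusted p of 0.0285. Of the 7 fits that left out 1 library, Rpl17 stayed past the threshold in the 3 without an AP_OCA library and Ndufa4 in the 2 without AP_OCA replicate 1 or 4. Without AP_OCA replicate 4, 5 cytosolic ribosomal proteins and 1 respiratory chain subunit were past it, with medians of 0.37 and 0.40, and without AP replicate 3, 1 and 0 (55 subunits higher at an unadjusted p under 0.05). After removal of the trend over length and GC, the medians of the 2 lists were 0.21 and 0.31, beside 0.25 for the members, and 2 and 0 of their genes were past limma's threshold, with 25 and 30 higher at an unadjusted p under 0.05. Neither Rpl17, at 0.65 with a limma adjusted p of 0.0705, nor Ndufa4, at 0.33 with 0.228, was then past it.

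The genes that the mitochondrial ribosome translates are encoded in the organelle. Of 11 such genes tested, 10 had a positive fold change and the median was 0.83, but none passed limma's test, with 4 higher and 0 lower at an unadjusted p under 0.05. Without AP replicate 3 their median was 0.33. After removal of the trend over length and GC it was -0.03. The RNA of the small subunit itself, mt-Rnr1, varied widely, at 118, 268, 63.9 and 99.9 CPM in AP and 80.0, 179 and 233 under OCA. The groups overlapped, with a log2 fold change of 0.32 ± 0.53 (SE) and a limma adjusted p of 0.738.

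The members were spread over 17 chromosomes, with at most 11 on 1 of them. Of the 78, 18 had a protein-coding gene starting in the opposite direction within 1000 bases of their own start, and 15 of these partners were tested. Of the 15 partners 6 had a positive log2 fold change, and their median was -0.12. Mitd1, whose start lies 66 bases from that of Mrpl30, had a log2 fold change of 0.66, and Fau, 59 bases from Mrpl49, one of 0.70. Ppp1r10, 45 bases from Mrps18b, had one of -0.84. None of these named partners passed limma's test. They shared the sign of their member, and the other tested partners were split, some with the same sign as their member and some with the opposite sign. In all, 42 members overlap another annotated gene and 36 of them do so on the opposite strand, so their counts are uncertain where reads were not assigned by strand. Of the 42, 13 overlap another gene on the same strand, where assignment by strand would not separate the reads.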

How the data were processed

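RNA of 8 samples was sequenced after library preparation with a SMARTER mRNA kit, per the labels' protocols. Per the submitters' processing notes the genome build was mm10, and the aligner, counting tool, strand setting and annotation are not given in the sources used here. The authors deposited 1 table of log2 values per gene and library. Its lowest value, -6.64 in each of the 8 libraries, is the log2 of 0.01, and its highest is 20.57 in all 8, as quantile normalised values would be. Of its genes 30191 were at 0 in every library.

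The deposited log2 values were made linear, 0.01 was subtracted, and libraries were brought to a total of 1000000 (CPM). After adding a pseudocount of 1 CPM, limma 3.58.1 in R 4.3.3 was run on genes averaging 1 CPM or more, using a mean-variance trend, robust moderation and Benjamini-Hochberg adjustment over all genes tested. Log2 values and an offset had not been foreseen in the planned tests, and those for normalised values were used. The code was tested on simulated data. Columns were matched to samples by title. Transcript lengths, GC content and positions came from GENCODE M21, in which all 78 members were found, and 5 Mrp pseudogenes were left out. Reads shared with pseudogenes are uncertain.

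The members and gene lists were chosen with earlier results of these data known. Genes were named by rule: members past the threshold, the 8 highest and up to 5 lowest fold changes at a mean of at least 5 CPM, the 6 highest means, the 3 farthest above and below the other libraries in AP_OCA replicate 2, any listed at 0, and 7 members of special role. Of each other list the rule took up to 3 genes past the threshold or the 1 with the lowest p, and of marker lists the 2 most abundant. Not all of those are printed, and Mrps27, Mrpl54, Mrps21, Mrps25, Csf3r, Col1a1, Mitd1, Fau and Ppp1r10 were named after their values were seen. Alternatives covered the scaling, filter, pseudocount, weights, trend, replicate block, length and GC, and each library left out.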

Additional observations from a re-analysis of the deposited data

Results flagged for a closer look

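Of 50 groups of 4 libraries, made of the named members in AP and in AP_OCA, 5 held a library whose gap to its nearest neighbour took a larger part of the group's range than Dixon's critical value for 4 values. Chance alone gives this in about 1 group in 20 where groups are not chosen by their values, as some were here. In AP, Mrps2 in replicate 3, at 17.0 CPM, had a gap of 0.909 of the range, and Mrps30 in the same replicate, at 15.7 CPM, one of 0.834. Mrpl49 in AP replicate 2, at 0.854 CPM, lay below the other AP libraries with a gap of 0.911. Under OCA, AP_OCA replicate 2 was the library apart in both cases, with Mrpl49 at 9.53 CPM above the others (0.851) and Mrpl38 at 13.5 CPM below them (0.861). Mrpl49 was named for lying outside the other libraries in AP_OCA replicate 2, and Mrpl38 partly so. These flags under OCA therefore follow from the choice of genes and add nothing to it.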

How the results depend on the processing

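In the 7 libraries the 2 members past the threshold became 0 on the deposited log2 scale, without a filter on low values, without the mean-variance trend, with a pseudocount of 0.1 CPM and with the length and GC trend removed, and remained 2 in number under median centring, a second quantile normalisation, a minimum of 5 CPM and a pseudocount of 5 CPM. Library quality weights gave 25 in the 7 libraries and 17 in all 8, where the unweighted count was 0 (28 higher at an unadjusted p under 0.05). Leaving out 1 library gave counts of 0 to 15 in the 7, the 15 without AP_OCA replicate 1, and of 0 to 2 in the 8, the 2 without AP_OCA replicate 2. The share over all genes is not given for the fit without AP_OCA replicate 1, so its 15 cannot be read as particular to the members. The members' median ranged from 0.34 to 0.57 with 1 of the 7 left out and from 0.45 to 0.57 with 1 of the 8 left out. With the length and GC trend removed it was 0.25 and 0.29. The cytosolic ribosomal proteins' median was then 0.21 in the 7 and 0.33 in the 8, and the respiratory chain subunits' 0.31 and 0.36. The cause was not tested. Whether replicate numbers pair the samples is unknown. With each gene's group mean taken out, same-numbered libraries correlated at -0.0553, 0.0528 and -0.0715 in the 7 and between -0.166 and 0.116 in the 8. Libraries of different number correlated between -0.163 and 0.117 in the 7 and between -0.174 and 0.17 in the 8. These values are of the deviations left over and not of the expression levels themselves. So few pairs cannot tell whether same-numbered libraries share an animal or preparation. With the number as a replicate block 4 members passed in the 7, all higher, against 235 of all 10894 genes. In the 8 it was 0, against 0 of all 11311 genes. With the replicate block and the length and GC trend removed, 0 passed, and the members' median was 0.29 in the 8, that of the cytosolic ribosomal proteins 0.24 in the 7 and 0.33 in the 8, and that of the respiratory chain subunits 0.31 and 0.36. In the 8 every replicate number occurs in both groups, so the block cannot change a fold change there. The medians of the 8 with the block therefore repeat those without it. Of 907 values of the named members under alternatives, 826 kept direction and side of the threshold, 33 newly passed, 24 no longer passed, and 24 changed sign with none past the threshold. Depth is unknown, which limits the low members Mrps36, Mrpl49 and Mrpl41 most.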
